A study of Arabidopsis thaliana with 16 samples.

Results

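The genes described here build the secondary wall of xylem and fibre cells and make its lignin. They are 40 of the 33602 Arabidopsis thaliana loci counted, chosen by locus identifier as known genes of the pathway. The rule used no measured value, but earlier results of these data were known when the list was drawn up. They comprise 3 cellulose synthases, 6 xylan synthesis genes, 2 genes of wall assembly, 2 laccases, 2 xylem proteases, 11 transcription factors and 14 enzymes of the lignin pathway. All 40 were found in the table and all 40 passed the filter on low counts.

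Poly(A) RNA was sequenced from the rosette region, taken when the bolt was below 1 cm, after leaves, roots and elongated stem had been removed. The 4 genotypes were Col-0 (WT), the double mutant ckx3 ckx5, named for 2 cytokinin oxidase genes, the strigolactone receptor mutant d14-7, and scl28. The last is named for a GRAS transcription factor, and each mutant is called a knock out in the labels. Each genotype had 4 libraries, and each library was a pool of 2 to 3 plants. The 4 were those with the best RNA integrity of 5 pools collected. Plants of scl28 were 25 days old at harvest and those of the other 3 genotypes 23 days, so that genotype and age cannot be told apart for scl28. All plants grew under 16 h of light and 8 h of dark and were collected between 9 and 11 in the morning. No library was labelled with a growth batch.

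The secondary wall is laid down inside the primary wall once a cell has stopped growing. NAC transcription factors of the VND and NST groups switch the programme on, largely through MYB46 and MYB83, and the wall itself is a network of cellulose and xylan that is stiffened with lignin. Lignin is polymerised in the wall by laccases and peroxidases from monolignols, which the phenylpropanoid pathway makes from phenylalanine. The early steps of that pathway also feed flavonoids and other soluble phenolics, so that its enzymes are not specific to xylem. Vessel cells die at the end of the programme, and the proteases XCP1 and XCP2 take part in clearing their contents.

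Library totals ran from 24334925 to 36735056 counts. SCL28 averaged 15.5 CPM (counts scaled to library size) in scl28 against 36.5 in WT, and D14 averaged 30.5 CPM in d14-7 and 28.1 in the ckx3 ckx5 group against 41.2 in WT. In the ckx3 ckx5 libraries CKX5 averaged 2.83 CPM against 3.33 in WT, and CKX3 averaged 1.73 against 0.339. CKX3 rose (2.40 ± 0.51, edgeR adjusted p = 0.00201) and CKX5 did not pass the test (-0.23 ± 0.33, edgeR adjusted p = 0.634). Neither transcript was thus called lower, and the labels do not give the alleles of these genes. Counts over a locus do not show whether its product works, so the label could not be checked this way. These samples are called the libraries labelled ckx3 ckx5 throughout. In bulk tissue, fewer cells of a type and less RNA per cell cannot be told apart. Coordinates are those of RefSeq TAIR10.1. Values by library are CPM in the order of replicates 1 to 4, changes are log2 fold changes ± standard error with n = 4 libraries a group, and “rose” and “fell” are used of an edgeR adjusted p under 0.05.

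Per kilobase of transcript, most lignin enzymes were among the more abundant of the genes in WT and most transcription factors among the least. Exceptions were the enzyme PAL4 at 4.79 CPM per kilobase, and KNAT7, the highest of the factors at 7.28. CCOAOMT1, the caffeoyl-CoA methyltransferase, led with 219 CPM per kilobase, followed by the methyltransferase OMT1 with 164, the reductase CCR1 with 161 and the hydroxylase C4H with 158. The proteases XCP2 and XCP1 stood at 63.3 and 32.5 CPM per kilobase. CESA4, CESA7 and CESA8, the 3 subunits of the secondary wall cellulose synthase, lay next to each other at 9.95, 9.33 and 8.65. The fibre switch SND1 was the lowest with 0.284 CPM per kilobase, and its counts ran from 3 to 24 in a library.

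**Figure D1:**
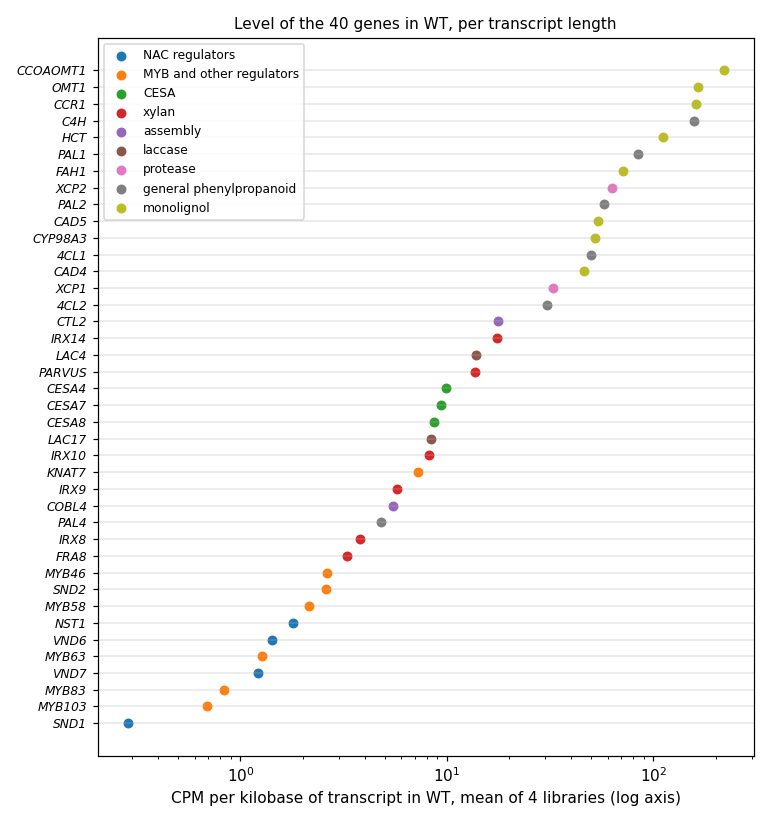
Mean level of each of the 40 genes in the 4 WT libraries, as CPM per kilobase of transcript on a log axis, coloured by role. Lignin pathway enzymes fill most of the upper end, from CCOAOMT1 at 219, and transcription factors the lower end, down to SND1 at 0.284.

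The starts of several of these genes carry short elements that are known from work on lignin promoters, and their stretches are shown here. The AC elements are bound by MYB factors such as MYB58 and MYB63. They were searched as ACCTACC (AC-I), ACCAACC (AC-II) and ACCTAAC (AC-III) on both strands, in the 250 bases before each annotated gene start. At least 1 of the 3 stood in 6 of the 14 lignin enzyme promoters, in 2 of the 15 wall polymer and protease promoters and in 1 of the 11 transcription factor promoters, against 6.12% of 27443 protein-coding promoters. The stretches of the lignin enzymes, read 5′ to 3′ along each gene from the RefSeq assembly TAIR10.1 with the element in capitals, were these.
4CL2, chr3:7457523-7457559, minus strand: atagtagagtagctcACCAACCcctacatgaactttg
4CL2, chr3:7457414-7457450, minus strand: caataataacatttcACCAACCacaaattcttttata
HCT, chr5:19838304-19838340, minus strand: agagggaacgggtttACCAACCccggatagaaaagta
CYP98A3, chr2:17060653-17060689, minus strand: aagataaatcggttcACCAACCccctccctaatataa
CCOAOMT1, chr4:16310181-16310217, plus strand: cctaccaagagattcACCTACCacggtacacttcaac
CCR1, chr1:5478574-5478602, plus strand: gtttcttcttcttccACCAACCcctcttt
CAD5, chr4:16389157-16389190, minus strand: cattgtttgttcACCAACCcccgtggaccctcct
AC-II stood in 5 of these 6 genes, and in 2.69% of all promoters. AC-I, found in CCOAOMT1, stood in 1.16% of all promoters. The windows of PAL1, PAL2, PAL4, C4H, 4CL1, FAH1, OMT1 and CAD4 held no AC element. Whether the elements bear on the changes below was not tested.

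Among the wall polymer genes the AC-III form was found, which stood in 2.46% of all promoters, and the tracheary element motif TERE was found in CESA4 and XCP1. TERE is bound by VND6. It was searched as CTT, any base, AAAGC, any base and A, and 0.37% of all promoters held it. In the transcription factors the only match was an AC-II element in MYB83, on the strand opposite to the gene.
IRX8, chr5:22222172-22222208, minus strand: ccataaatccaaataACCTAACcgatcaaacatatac
LAC17, chr5:24167920-24167956, plus strand: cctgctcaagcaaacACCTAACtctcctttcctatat
CESA4, chr5:17714355-17714389, plus strand: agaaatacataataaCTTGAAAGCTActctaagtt
XCP1, chr4:16810392-16810432, plus strand: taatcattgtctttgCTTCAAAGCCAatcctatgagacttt
MYB83, chr3:2578445-2578481, minus strand: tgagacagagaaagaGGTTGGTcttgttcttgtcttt
The evening element AAAATATCT, which clock factors bind, stood in CCR1 among the 40 genes and in 2.36% of all promoters. A match of letters is not a measured binding site.

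The libraries labelled ckx3 ckx5 held less mRNA of nearly the whole lignin pathway than WT, while of the 3 cellulose synthases and 6 xylan genes none passed the test by edgeR or by DESeq2. At an unadjusted p under 0.05, FRA8 was the only one of these to pass (-0.51 ± 0.23). Of the 14 lignin enzymes 13 fell, with a median change of -0.58 against 0.01 for all loci tested, and 12 had every library below every WT library. Of the 15 genes of cellulose, xylan, wall assembly, laccases and proteases, XCP1 and XCP2 rose and the median change was 0.03. Over all 40 genes 3 rose and 14 fell, where 29.6% of the 20947 loci tested changed, 13.6% upwards and 16.0% downwards, and every library lay below WT for 13.7% of loci. With DESeq2 the counts were also 3 and 14.

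The lignin enzymes with the smallest adjusted p came from the entry to the pathway, its middle and its last step. 4CL1 (AT1G51680, chr1:19158746-19161737), the main 4-coumarate:CoA ligase of lignin, stood at 120, 101, 110 and 112 CPM in WT and at 67.3, 63.5, 63.6 and 61.2 in libraries labelled ckx3 ckx5. The ckx3 ckx5 values were close together and all below the lowest WT library. The change was -0.79 ± 0.06 (edgeR adjusted p = 1.2e-07), a level 42.3% lower. CAD4 (AT3G19450, chr3:6744377-6747238), a cinnamyl alcohol dehydrogenase of the last step to the monolignols, stood at 102, 82.2, 76.6 and 72.4 CPM in WT and at 44.7, 40, 42.8 and 39.9 in libraries labelled ckx3 ckx5. WT replicate 1 was the highest of all 8, and the groups did not overlap. CAD4 fell by 0.99 ± 0.10 (edgeR adjusted p = 1.4e-06), a level 49.6% lower.

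PAL1 and PAL2 encode phenylalanine ammonia-lyases, the enzymes that open the pathway. PAL1 (AT2G37040, chr2:15557367-15560755) stood at 277, 217, 259 and 237 CPM in WT and at 119, 109, 136 and 103 in libraries labelled ckx3 ckx5. Its change was the largest of the 14 enzymes, at -1.08 ± 0.12 (edgeR adjusted p = 4.74e-06), and every ckx3 ckx5 value was far below every WT value. PAL2 (AT3G53260, chr3:19744018-19747114) stood at 184, 151, 167 and 164 CPM in WT and at 109, 94.2, 106 and 97.4 in libraries labelled ckx3 ckx5, again without overlap, and changed by -0.71 ± 0.08 (edgeR adjusted p = 1.15e-05). The exons of PAL1 and PAL2 share 1.81% and 1.91% of their 31-base words with other loci, which limits how far reads could be assigned to the wrong copy. PAL4, the weakest of the 3 PAL genes in level, averaged 11.0 CPM against 13.0 in WT with overlapping libraries, and was the only lignin enzyme that did not pass (-0.24, edgeR adjusted p = 0.28).

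CCOAOMT1 and HCT act in the middle of the pathway, where the ring of the monolignol is modified. CCOAOMT1 (AT4G34050, chr4:16310409-16312308) stood at 325, 320, 334 and 377 CPM in WT and at 234, 227, 207 and 209 in libraries labelled ckx3 ckx5. All 4 ckx3 ckx5 libraries lay below the lowest of WT, and the change was -0.63 ± 0.07 (edgeR adjusted p = 3.69e-06). HCT (AT5G48930, chr5:19836299-19838235), the shikimate hydroxycinnamoyl transferase, stood at 189, 192, 200 and 219 CPM in WT and at 143, 139, 137 and 129 in libraries labelled ckx3 ckx5. The HCT groups were also separate, and the change was -0.54 ± 0.08 (edgeR adjusted p = 5.68e-05).

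The other 7 enzymes that fell did so by less or with more spread. 4CL2, the second CoA ligase, changed by -0.75 ± 0.11, and CAD5, the partner of CAD4, by -0.66 ± 0.11. CCR1 (-0.39 ± 0.07), C4H (-0.35 ± 0.07), the hydroxylase CYP98A3 (-0.34 ± 0.06) and OMT1 (-0.31 ± 0.08) fell by smaller amounts. The smallest fall was that of FAH1, the ferulate 5-hydroxylase that leads to syringyl lignin, at -0.18 ± 0.06 (edgeR adjusted p = 0.0305), with libraries that overlapped WT. FAH1 lost its call in 8 of 22 alternative settings, and the other 12 enzymes kept theirs in all 22. CCR1 overlaps AT1G15960 by 516 bases, and the library kit does not mark strand. AT1G15960 changed by -0.34 ± 0.11 and held 14844 counts against 108961 for CCR1.

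**Figure D2:**
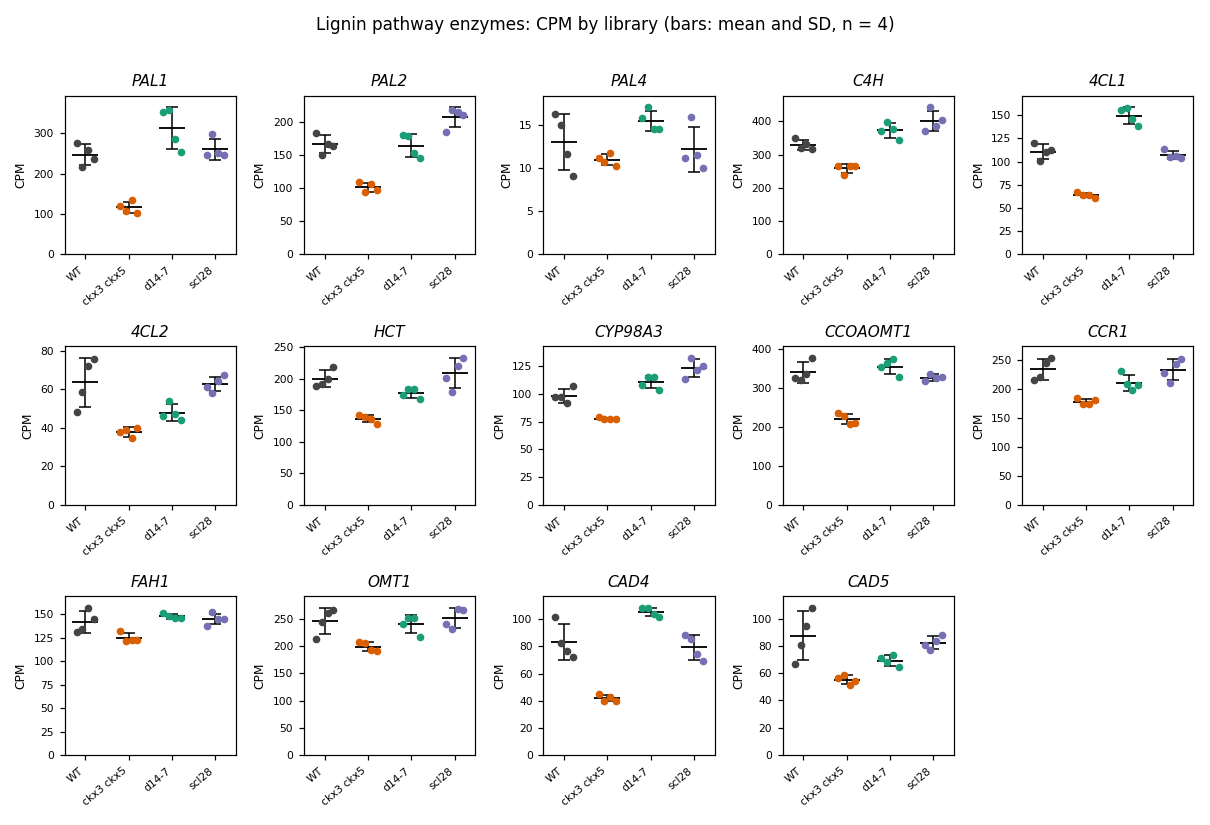
CPM of the 14 lignin pathway enzymes in each of the 16 libraries, by genotype, with a line at the mean and bars of 1 SD (n = 4). The orange points of libraries labelled ckx3 ckx5 sit below all WT points for 12 of the 14 genes, and overlap WT for PAL4 and FAH1.

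Summed over the 14 enzymes, the level was 1624 ± 49.1 CPM (SD, n = 4) in libraries labelled ckx3 ckx5 and 2361 ± 101 in WT. The sum was 2479 ± 148 CPM in d14-7 and 2502 ± 70.6 in scl28. Over the 15 wall polymer and protease genes the sums were 456.4 ± 23.9, 417.4 ± 32.6, 492.6 ± 28.4 and 365.6 ± 40.3 CPM in libraries labelled ckx3 ckx5, WT, d14-7 and scl28. The libraries labelled ckx3 ckx5 thus stood apart by the sum of the enzymes, and lay among the other groups by the sum of the wall polymer genes.

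**Figure D3:**
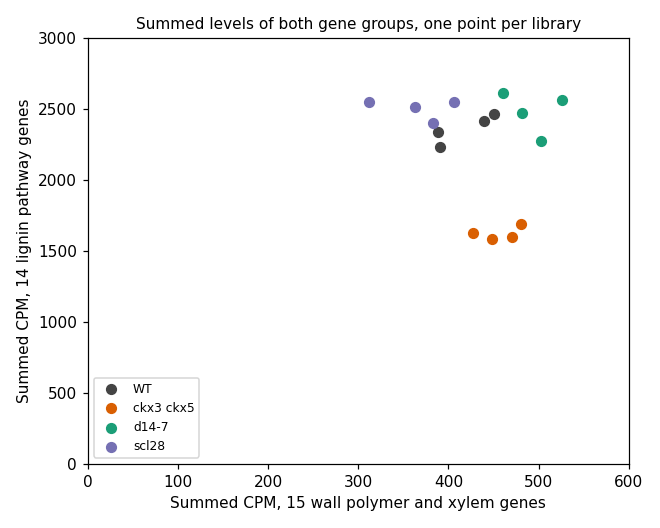
Summed CPM of the 14 lignin enzymes against summed CPM of the 15 wall polymer and protease genes, with 1 point per library. The libraries labelled ckx3 ckx5 lie between 1580 and 1692 on the vertical axis and the other 12 libraries at 2233 or above.

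Other groups of genes moved in the same libraries. All 14 genes of salicylic acid defence fell, and their summed level was 281.0 ± 16.4 CPM against 938.8 ± 282 in WT. Of 9 clock genes 6 rose and 3 fell, with a change of -3.61 ± 0.07 for LHY and 3.80 ± 0.18 for PRR5. Of 6 wound and touch genes 5 fell, and of 19 leaf photosynthesis genes 5 fell. Over all loci, 13.6% rose and 16.0% fell in this comparison. The summed leaf level ran from 22180 to 25050 CPM in libraries labelled ckx3 ckx5 and from 19350 to 34310 in WT. The part of defence, clock and wounding in the fall of the lignin enzymes was not tested. The leaf score is the mean log2 CPM of the 19 photosynthesis genes. With this score as a covariate all 13 lignin enzymes that fell kept their calls, FAH1 included. That fit is among the alternative settings already counted for these enzymes, so it adds no separate check. The covariate is itself a measured expression level, and the part of leaf tissue in the fall was not tested.

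The cellulose synthase genes of the secondary wall did not pass the test in any mutant against WT. CESA4 (AT5G44030, chr5:17714390-17719723) stood at 30.1, 33.6, 39.6 and 41.2 CPM in WT, at 38.5, 39.5, 32.5 and 33.6 in libraries labelled ckx3 ckx5, at 44.9, 37.9, 42.6 and 41.8 in d14-7 and at 35.5, 26.1, 31.2 and 39.7 in scl28. CESA7 (AT5G17420, chr5:5736630-5741500) stood at 27.1, 27.8, 33.1 and 39.0 CPM in WT, at 36.6, 34.6, 28.3 and 28.7 in libraries labelled ckx3 ckx5, at 39.7, 30.6, 33.7 and 36.8 in d14-7 and at 27.9, 20.5, 24.8 and 39.2 in scl28. CESA8 (AT4G18780, chr4:10312624-10316886) stood at 24.3, 26.6, 30.1 and 34.8 CPM in WT, at 30.1, 30.5, 28.1 and 29.4 in libraries labelled ckx3 ckx5, at 39.1, 31, 34.6 and 35.1 in d14-7 and at 25.7, 20.3, 23.2 and 30.4 in scl28. Each mutant overlapped WT for all 3 genes, and for all 3 the lowest of the 16 libraries was scl28 replicate 2. The changes against WT lay between -0.01 and 0.03 in libraries labelled ckx3 ckx5, between 0.14 and 0.27 in d14-7 and between -0.22 and -0.13 in scl28. By edgeR 0 of the 3 were called in any mutant against WT, and by DESeq2 also 0; at an unadjusted p under 0.05, CESA8 was higher in d14-7 and no other passed. In alternative settings CESA8 passed in d14-7 without WT replicate 4, without scl28 replicate 4 and with the leaf score as a covariate. With that covariate CESA4 in d14-7 and CESA8 in scl28 passed as well.

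The xylem proteases XCP1 and XCP2 rose in libraries labelled ckx3 ckx5 and in d14-7. XCP1 (AT4G35350, chr4:16810482-16812077) stood at 43.4, 44.3, 45.4 and 41.0 CPM in WT, at 62.1, 58.4, 57.0 and 57.6 in libraries labelled ckx3 ckx5, at 62.8, 56.8, 53.8 and 65.7 in d14-7 and at 37.9, 28.7, 35.7 and 34.7 in scl28. Every library of the first 2 mutants named was above every WT library, and every scl28 library was below. The changes against WT were 0.43 ± 0.08, 0.46 ± 0.08 and -0.35 ± 0.08, with edgeR adjusted p of 0.000614, 0.000569 and 0.00614. XCP2 (AT1G20850, chr1:7252111-7253747) stood at 85.9, 84.7, 93.5 and 84.8 CPM in WT, at 110, 115, 101 and 108 in libraries labelled ckx3 ckx5, at 124, 108, 113 and 119 in d14-7 and at 85.7, 73.2, 77.7 and 74.7 in scl28. The order of the groups was that of XCP1, but scl28 replicate 1 reached into the WT range. XCP2 changed by 0.32 ± 0.06 and 0.42 ± 0.06 in the first 2 (edgeR adjusted p = 0.00125 and 0.000217) and by -0.16 ± 0.06 in scl28 (adjusted p = 0.079). These comparisons share the WT libraries.

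Set directly against each other, d14-7 and scl28 differed in both proteases. XCP1 was higher in d14-7 by 0.80 ± 0.08 and XCP2 by 0.58 ± 0.06, without overlap. Between d14-7 and libraries labelled ckx3 ckx5 the proteases differed by 0.02 and 0.10 with overlapping libraries, and neither passed the test.

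**Figure D4:**
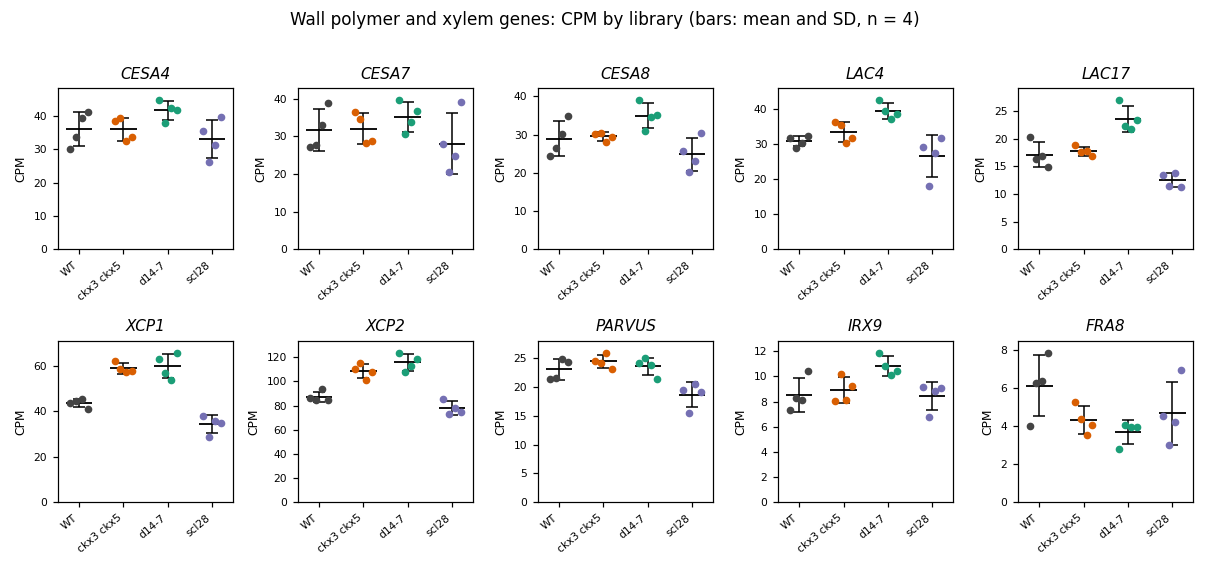
CPM of 10 wall polymer and xylem genes in each of the 16 libraries, by genotype, with a line at the mean and bars of 1 SD (n = 4). XCP1 and XCP2 are high in libraries labelled ckx3 ckx5 and in d14-7, LAC17 is high in d14-7 and low in scl28, and the 3 CESA genes overlap between each mutant and WT.

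In d14-7 the proteases and laccases rose, the lignin enzymes and xylan genes had calls in both directions, and 2 factors fell. Over the 40 genes 9 rose and 6 fell, where 38.7% of all loci changed, 18.1% upwards and 20.6% downwards. The share of genes that passed was thus close to that of all loci. The median change was 0.12 against -0.01 for all loci. All 4 d14-7 libraries lay above WT for 6 genes and below WT for 1, HCT, which did not pass the test, where 10.8% and 16.0% of all loci did so. Genes that rose were the proteases, both laccases (LAC4 and LAC17), IRX9 of xylan synthesis, and the enzymes 4CL1, PAL1, CAD4 and CYP98A3.

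4CL1, which was low in libraries labelled ckx3 ckx5, was high in d14-7, at 155, 158, 146 and 138 CPM. All 4 values were above the highest WT library, and the change was 0.43 ± 0.06 (edgeR adjusted p = 0.000129). LAC17 (AT5G60020, chr5:24167996-24170462), a laccase that polymerises lignin in the stem, stood at 20.3, 16.4, 16.8 and 14.9 CPM in WT and at 27.0, 22.3, 21.8 and 23.3 in d14-7. WT replicate 1 came closest to the d14-7 range without entering it, and the change was 0.46 ± 0.10 (edgeR adjusted p = 0.00239). CAD4 stood at 108, 108, 104 and 102 CPM in d14-7, the lowest of these only just above WT replicate 1, with a change of 0.34 ± 0.09 (edgeR adjusted p = 0.0112).

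4CL2 (AT3G21240, chr3:7454269-7457404) went the other way from 4CL1. It stood at 48.3, 58.7, 72.4 and 75.9 CPM in WT, at 37.9, 39.1, 34.5 and 40 in libraries labelled ckx3 ckx5, at 46.3, 54.0, 47.4 and 44.0 in d14-7 and at 61.3, 58.3, 64.2 and 67.3 in scl28. WT was the most spread group, and its replicate 1 lay within the d14-7 range. The change in d14-7 was -0.41 ± 0.11 (edgeR adjusted p = 0.0101). CAD5 fell likewise, by 0.34 ± 0.11, while its partner CAD4 rose. In libraries labelled ckx3 ckx5 all 4 genes of these pairs were low. In d14-7 the call of CAD5 was lost in 6 of 22 settings, among them without WT replicate 3, WT replicate 4, d14-7 replicate 2 or d14-7 replicate 4. That of 4CL2 was lost in 2 settings, and that of CAD4 with the leaf score as a covariate.

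Among the other genes that fell in d14-7, NST1 (AT2G46770, chr2:19220725-19222916), a switch for fibre walls, had the largest change (-1.06 ± 0.37, edgeR adjusted p = 0.0337). It stood at 1.53, 1.60, 2.59 and 4.19 CPM in WT and at 1.69, 1.15, 1.32 and 0.691 in d14-7, so that WT replicates 3 and 4 lay above all d14-7 libraries and WT replicates 1 and 2 inside their range. MYB63, an activator of lignin genes (-0.86 ± 0.28), FRA8, which helps start the xylan chain (-0.73 ± 0.23), and IRX14, of the xylan backbone (-0.24 ± 0.07), also fell, all with libraries that overlapped WT. The other genes that rose were LAC4 (0.36 ± 0.12), PAL1 (0.34 ± 0.12) and IRX9 (0.34 ± 0.12), beside CYP98A3 (0.17 ± 0.06). Of the 15 calls, 4CL1, XCP1, XCP2 and LAC17 held in all 22 alternative settings. The count of fallen genes was 2 without WT replicate 3, 1 without WT replicate 4 and 3 without d14-7 replicate 4, and that of risen genes was 5 without WT replicate 2, WT replicate 3 or d14-7 replicate 2.

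Leaf photosynthesis genes were higher in the same libraries, with 8 of 19 risen and a summed level of 27700 to 34910 CPM against 19350 to 34310 in WT. Over all loci, 18.1% rose and 20.6% fell. With the leaf score as a covariate, 0 of the 40 genes fell in d14-7. CAD4, CYP98A3, LAC4 and PAL1 lost their calls, while CESA4, CESA8 and CTL2 gained one. Calls over all loci also dropped in that fit, to 2713 from 8101 without the covariate. Of the 14 salicylic acid defence genes 7 fell, with a summed level of 538.2 ± 92.2 CPM. Of the 9 clock genes 1 rose and 4 fell, with a summed level of 446.9 ± 12.1 CPM against 575.2 ± 14.2 in WT. Of 4 root markers, PYK10 was 0.94 ± 0.15 higher, and the other 3, COBL9, EXPA7 and EXPA18, averaged 0.146 CPM or less over all libraries. Of 8 cambium genes 3 rose and 0 fell, with a summed level of 509.7 ± 16.5 CPM against 433.9 ± 19.4 in WT. Of 14 phloem genes 0 rose and 3 fell, a share near that of all loci. Their summed level was 678.9 ± 44.0 CPM against 870.4 ± 152 in WT, with overlapping libraries. The part of leaf, root, cambium and phloem tissue, defence and clock was not tested.

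In scl28 few of the genes passed, and they did so in separate parts of the pathway. Over the 40 genes 3 rose and 4 fell, where 19.8% of all loci changed, 9.30% upwards and 10.5% downwards. The share of genes that passed was near that of all loci. The 3 that rose were lignin enzymes of the pathway's upper and middle steps, and the 4 that fell belonged to polymerisation, xylan, cell clearance and regulation. All 4 scl28 libraries lay above WT for 3 genes and below WT for 3, where 9.65% and 9.11% of all loci did so.

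CYP98A3 (AT2G40890, chr2:17058053-17060652), which hydroxylates the coumaroyl ester that HCT makes, stood at 97.1, 97.4, 92.2 and 107 CPM in WT, at 79.3, 77.3, 77.4 and 77.3 in libraries labelled ckx3 ckx5, at 108, 115, 115 and 104 in d14-7 and at 114, 133, 122 and 125 in scl28. The scl28 values were all above the highest WT value, and the change was 0.33 ± 0.06 (edgeR adjusted p = 0.00103). C4H (AT2G30490, chr2:12993625-12996012), which makes coumarate from cinnamate, stood at 349, 319, 332 and 318 CPM in WT and at 370, 442, 387 and 403 in scl28. It too was separate from WT, with a change of 0.28 ± 0.07 (edgeR adjusted p = 0.00983). PAL2 stood at 186, 219, 215 and 211 CPM in scl28, where the lowest value was just above the highest of WT, and the change was 0.32 ± 0.08 (edgeR adjusted p = 0.014).

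LAC17 fell in scl28, to 13.4, 11.4, 13.7 and 11.3 CPM, all below the lowest WT library, with a change of -0.45 ± 0.10 (edgeR adjusted p = 0.00447). PARVUS (AT1G19300, chr1:6671095-6672777), a glycosyltransferase needed for xylan, stood at 21.4, 21.6, 24.9 and 24.4 CPM in WT, at 24.5, 24.1, 26.0 and 23.2 in libraries labelled ckx3 ckx5, at 24.1, 25.0, 23.8 and 21.4 in d14-7 and at 19.4, 15.5, 20.6 and 19.1 in scl28. All 4 scl28 libraries lay below the WT range, and the change was -0.31 ± 0.08 (edgeR adjusted p = 0.0178). MYB83 changed by -0.87 ± 0.28 (edgeR adjusted p = 0.0392) from counts of 12 to 69 in a library, and scl28 replicate 4 lay inside the WT range. Calls of CYP98A3, PAL2, LAC17 and XCP1 held in all 22 settings. The fallen genes numbered 2 without WT replicate 3 or WT replicate 4. They numbered 13 when the leaf score entered as a covariate. In that fit more of all loci were called in scl28 as well, so the larger number is not particular to these genes.

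Salicylic acid defence genes also fell in scl28, 14 of 14, with a summed level of 367.8 ± 23.3 CPM. The defence sum was thus below every WT library in all 3 mutants. Of the 9 clock genes 5 rose and 1 fell in scl28, and LHY changed by 1.03 ± 0.07. Of the 19 leaf genes 2 fell, a share near that of all loci, of which 10.5% fell and 9.30% rose. Of the 6 wound and touch genes 3 fell, and the root marker PYK10 fell (-0.76 ± 0.15). The part of defence, clock, wounding and root tissue was not tested.

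The transcription factors passed the test in few cases and at low counts. Of 11 factors, VND6 (AT5G62380, chr5:25050152-25052054), the switch for metaxylem vessels, rose in libraries labelled ckx3 ckx5 (0.57 ± 0.19, edgeR adjusted p = 0.0335), where MYB58 fell (-0.61 ± 0.22, edgeR adjusted p = 0.0409). VND6 stood at 1.95, 2, 1.77 and 2.29 CPM in WT and at 3.27, 2.26, 3.49 and 2.84 in libraries labelled ckx3 ckx5, with an overlap at replicate 2. The gene shares 77 bases with AT5G62390, which held 160272 counts against 1199 for VND6, so that reads of the neighbour could weigh on it. AT5G62390 changed by 0.22 ± 0.09 in the same comparison. MYB58 overlaps AT1G16489 on the other strand by 1434 bases, and that locus held 212 counts against 1056 for MYB58. AT1G16489 changed by -0.42 ± 0.35 there and did not pass (edgeR adjusted p = 0.392). VND6 lost its call in 6 settings and MYB58 in 9. VND7, MYB46, MYB103, SND2 and KNAT7 passed in no mutant against WT, and their changes lay between -0.28 and 0.58. SND1 changed by -1.38 ± 0.56 in libraries labelled ckx3 ckx5 (edgeR adjusted p = 0.0746) and did not pass in the other mutants either.

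**Figure D5:**
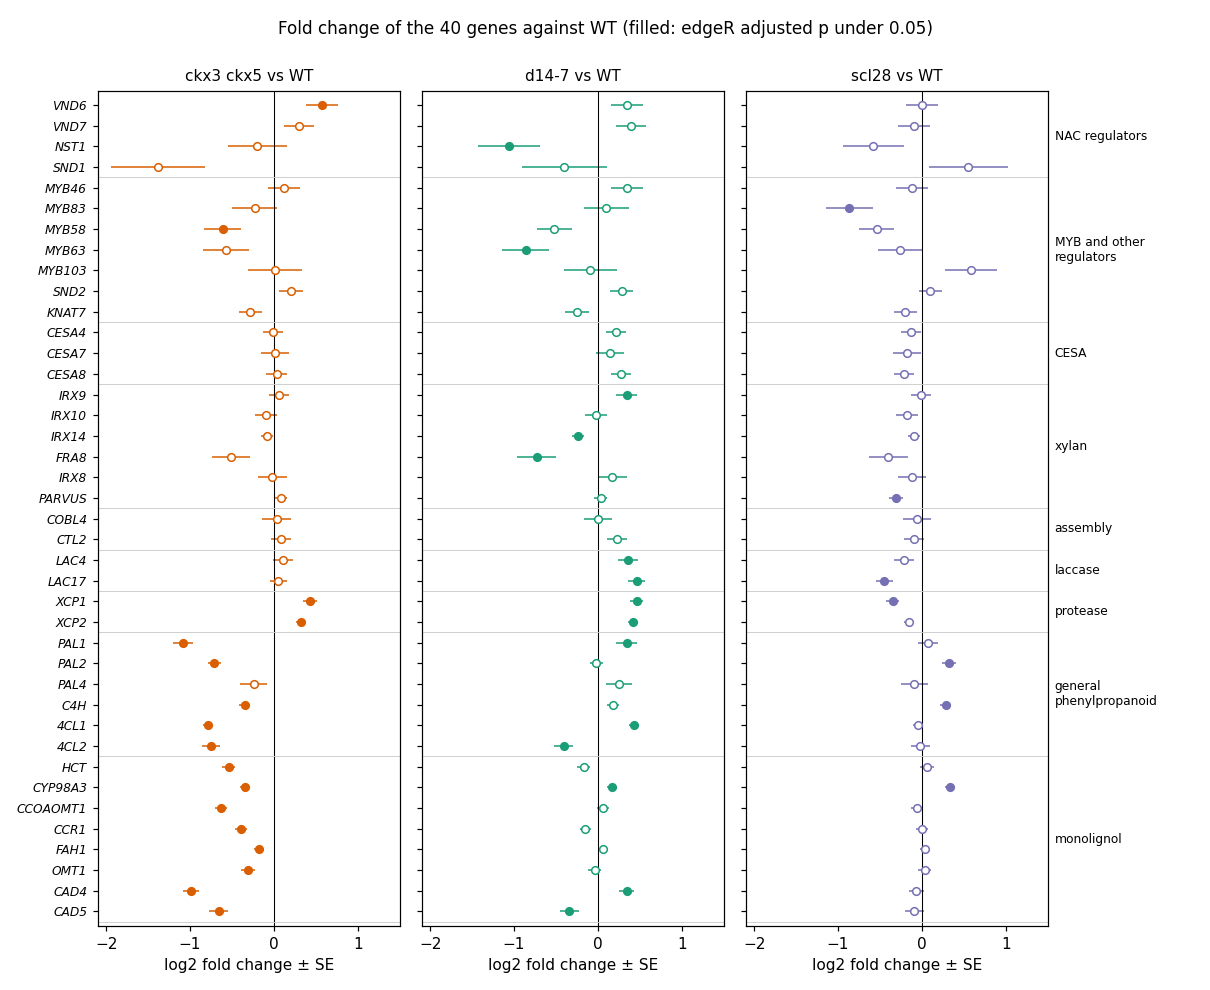
Log2 fold change ± SE of each of the 40 genes in each mutant against WT, grouped by role, with filled points where the edgeR adjusted p was under 0.05. In libraries labelled ckx3 ckx5 the filled points of the lignin enzymes all lie left of 0, from -1.08 to -0.18. Those of the lignin enzymes lie on both sides in d14-7 (4 right, 2 left) and right of 0 in scl28 (3).

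The mutants were also compared with each other, without WT. All 14 lignin enzymes were higher in d14-7 than in libraries labelled ckx3 ckx5, with changes of 0.24 to 1.42 and no overlap for any of the 14, where 20.6% of all loci had every d14-7 library above and 20.8% every one below. LAC17 was higher as well (0.41 ± 0.10). Over the 40 genes 15 rose and 0 fell by edgeR, where 36.8% of all loci changed, 17.8% upwards and 19.0% downwards, and DESeq2 gave the same counts. At an unadjusted p under 0.05 there were 16 and 2. The largest differences were those of PAL1 (1.42 ± 0.12), CAD4 (1.33 ± 0.10) and 4CL1 (1.22 ± 0.06). Of the 15 calls 10 held in all 22 settings. PAL4 and CAD5 each lost theirs in 4 settings and 4CL2 in 3, among them single libraries left out of either group, CCR1 lost its call without d14-7 replicate 1, and LAC17 with the leaf score as a covariate. Of the leaf genes 14 of 19 and of the defence genes 10 of 14 were also higher in d14-7, and their part was not tested.

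Between scl28 and libraries labelled ckx3 ckx5, 13 of the 14 lignin enzymes were higher in scl28, all but PAL4. PAL1 (1.15 ± 0.12) and PAL2 (1.03 ± 0.09) had the largest differences among them. SND1 (AT1G32770, chr1:11865229-11867154) was higher in scl28 as well, at 0.552, 0.619, 0.640 and 0.565 CPM against 0.249, 0.179, 0.0903 and 0.0958. Its groups did not overlap and it changed by 1.93 ± 0.54 (edgeR adjusted p = 0.0145), from 3 to 8 counts a library in the lower group. XCP1 (-0.78 ± 0.08), LAC17 (-0.51 ± 0.10), XCP2 (-0.48 ± 0.06), PARVUS (-0.39 ± 0.08) and VND6 (-0.56 ± 0.19) were lower in scl28. VND6 lost its call in 8 of 22 settings, 6 of them with 1 library left out, and the other 18 calls held in all 22. Over the 40 genes 14 rose and 5 fell, where 24.7% of all loci changed, 13.1% upwards and 11.5% downwards. The groups were separate upwards for 14 genes and downwards for 5, as they were for 15.3% and 14.6% of all loci.

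Between d14-7 and scl28 genes of all roles differed, those of wall polymers and proteases in 1 direction. Of these 15 genes 9 were higher in d14-7, XCP1 and XCP2 among them. The others were CESA8 (0.49 ± 0.12), CESA4 (0.34 ± 0.12), PARVUS (0.34 ± 0.08), IRX9 (0.35 ± 0.12), CTL2 (0.33 ± 0.12), LAC4 (0.57 ± 0.12) and LAC17 (0.92 ± 0.10). By edgeR and by DESeq2 0 of the 15 were lower, and 0 at an unadjusted p under 0.05. MYB83 was higher in d14-7 by 0.97 ± 0.28 and VND7 by 0.49 ± 0.18. Of the lignin enzymes, 4CL1 (0.48 ± 0.06) and CAD4 (0.41 ± 0.09) were higher in d14-7, and 4CL2 (-0.39 ± 0.11), PAL2 (-0.34 ± 0.08), HCT (-0.23 ± 0.08) and CYP98A3 (-0.16 ± 0.06) lower. Over the 40 genes 13 rose and 4 fell, where 42.5% of all loci changed, 20.0% upwards and 22.5% downwards. All d14-7 libraries were above scl28 for 10 genes and below for 4, where 19.4% and 21.1% of all loci were so separated. Leaf genes differed most here, with all 19 higher in d14-7, and with the leaf score as a covariate CAD4, HCT, CYP98A3 and VND7 lost their calls and 4CL2 changed sign. Over the 22 settings the call was lost by VND7 in 14, by CYP98A3 in 9, by CTL2 in 7, by CESA4 in 6, by HCT in 5 and by IRX9 in 4, mostly with 1 library left out. The other calls, apart from CAD4 and 4CL2, held in all 22.

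In a joint test of any difference among the 4 genotypes, 23 of the 40 genes passed, where 62.8% of all loci did. The share was near that of all loci. By role, all 8 monolignol enzymes, 5 of 6 general phenylpropanoid enzymes, both laccases and both proteases passed. Of the rest, 1 of 3 cellulose synthases, 2 of 6 xylan genes, 2 of 4 NAC switches and 1 of 7 other factors passed, and neither assembly gene did. Each role held only 2 to 8 genes. Most lignin enzymes were among the more abundant genes and most factors among the least, so that role and level cannot be told apart in these counts. COBL4 and CTL2, the assembly genes, had an adjusted p of 0.965 and 0.107 in that test.

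Spread between libraries was largest in WT. The median coefficient of variation over the 40 genes was 15.6% in WT, 7.81% in libraries labelled ckx3 ckx5, 9.01% in d14-7 and 11.6% in scl28. Among the 4 WT libraries, 22 of the 40 genes were lowest in replicate 1 and 27 were highest in replicate 4. The leaf score was 10.095 in WT replicate 1, 9.656 in replicate 2, 9.204 in replicate 3 and 8.99 in replicate 4. Genes such as 4CL2, CAD5, NST1 and FRA8 followed that order upwards as the leaf score went down, and CAD4 followed it downwards.

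Further genes of the same pathway, which are known to act beside these 40, passed the test about as often as all loci or less often. Of 54 such genes 51 passed the filter. Against WT, 1 rose and 11 fell in libraries labelled ckx3 ckx5, where 29.6% of all loci changed. The riser was TED6 (0.32 ± 0.08), a membrane protein of secondary wall formation. The largest falls were those of CCR2, a second cinnamoyl-CoA reductase (-1.58 ± 0.23), the peroxidase PRX52 (-1.30 ± 0.30) and the factor MYB61 (-1.22 ± 0.42). In d14-7 12 rose and 4 fell, where 38.7% of all loci changed, led by the peroxidase PRX72 (0.86 ± 0.25), TED7 (0.60 ± 0.15), and WAT1 and 4CL3, which both changed by 0.55. PRX52 (-1.87 ± 0.31), MYB61 (-1.49 ± 0.43) and the repressor MYB7 (-0.90 ± 0.14) had the largest falls there. In scl28 3 rose and 7 fell, where 19.8% of all loci changed. 4CL3, the ligase linked to flavonoids (0.70 ± 0.18), WRKY12 (0.49 ± 0.17) and MYB32 (0.42 ± 0.13) rose, and PRX52 (-1.15 ± 0.30), the xylan methyltransferase GXMT1 (-0.68 ± 0.15) and 4CL5 (-0.67 ± 0.17) had the largest falls. PRX52 thus fell in each of the 3 comparisons with WT, which share the WT libraries.

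The flavonoid branch, which draws on the same coumaroyl-CoA, had a summed level of 1024 ± 185 CPM in libraries labelled ckx3 ckx5, 1693 ± 140 in WT, 1619 ± 317 in d14-7 and 2197 ± 226 in scl28. Of 7 flavonoid genes 6 fell in libraries labelled ckx3 ckx5, with CHI (-0.86 ± 0.10), F3H (-1.18 ± 0.16), FLS1 (-1.21 ± 0.22) and CHS (-0.80 ± 0.15) of smallest adjusted p. In scl28 4 of 7 rose, namely CHI (0.60 ± 0.10), F3'H (1.04 ± 0.20), F3H (0.81 ± 0.16) and LDOX (0.43 ± 0.14), and in d14-7 FLS1 rose (0.65 ± 0.21). Over all loci, 16.0% fell in libraries labelled ckx3 ckx5, and 9.30% rose in scl28 and 18.1% in d14-7. In libraries labelled ckx3 ckx5 the flavonoid genes and the lignin enzymes were thus low together.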

How the data were processed

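RNA-seq libraries of 4 genotypes with 4 libraries each were analysed. Estimated counts, deposited as whole numbers, covered 41671 transcript models. TAIR10 and DESeq2 are named without versions per the submitters' processing notes, with aligner, counting tool and strand setting not given in the sources used here. A kit that does not mark strand was used, per the labels' protocols. Counts were summed to 33602 loci, and totals ran from 24334925 to 36735056. The edgeR 4.0.16 quasi-likelihood test (glmQLFTest) in R 4.3.3 was run on all 16 libraries with 4 genotype means, TMM and filterByExpr, which left 20947 loci, with Benjamini-Hochberg adjustment over all of them and a threshold of 0.05. The test was also run on simulated counts, drawn with the means and spread of the data, for ckx3 ckx5 against WT only. The p-values rest on the spread between pools of plants. Alternatives were DESeq2 1.42.0 as a test, its size factors, no filter, only the groups compared, the leaf score as a covariate, a replicate block, and leaving out each library. No 2 libraries of a group agreed within sampling noise.

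Replicate numbers were not taken to pair samples. They are those of the sample titles, and for some libraries the library name carries a different number. Same-numbered libraries of different groups correlated at -0.276 to 0.342. Because title numbers were used, neither these correlations nor the replicate block could show a pairing by library name. Values in every library were given for CESA4, CESA7, CESA8, XCP1, XCP2 and, in each mutant against WT, up to 6 members of smallest adjusted p. Of further pathway genes the 3 largest rises and falls were named, and of other lists up to 4 genes of smallest adjusted p. The values by library of NST1, SND1 and VND6, and the genes named as following the leaf score, were chosen after their values were seen. The members and lists were chosen with earlier results of these data known. Motifs were searched in 250 bases before gene starts of the RefSeq assembly TAIR10.1. The deposited normalized table was not used here.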

Additional observations from a re-analysis of the deposited data

Results flagged for a closer look

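In 11 of 160 groups of 4 libraries, 1 library lay far from the other 3 by Dixon's criterion, which chance alone meets in about 1 in 20 groups. Among xylan genes, IRX9 was low in scl28 replicate 2 (6.75 CPM), IRX14 was high in d14-7 replicate 3 (38.9 CPM) and low in scl28 replicate 1 (37.3 CPM), FRA8 was low in d14-7 replicate 1 (2.78 CPM) and IRX8 was high in replicate 1 of the libraries labelled ckx3 ckx5 (9.46 CPM). XCP2 was high in WT replicate 3 (93.5 CPM) and the factor SND2 low in d14-7 replicate 3 (4.54 CPM). Among the lignin enzymes, PAL1 was high in scl28 replicate 2 (298 CPM). In the libraries labelled ckx3 ckx5, C4H was low in replicate 2 (238 CPM), CYP98A3 was high in replicate 1 (79.3 CPM, against 77.3 to 77.4 in the others) and FAH1 was high in replicate 1 (132 CPM).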

How the results depend on the processing

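In 22 alternative settings, counts moved by over 1.5 times with the leaf score as a covariate, in fits with only the groups compared and without single libraries. With the leaf score the loci called numbered 9319 in libraries labelled ckx3 ckx5, 2713 in d14-7 and 7550 in scl28, each against WT, and 4582 between d14-7 and scl28. Genes of the 40 that fell then numbered 0 in d14-7 and 13 in scl28 against WT and 1 between d14-7 and scl28, where 4CL2 changed sign to 0.10 (edgeR adjusted p = 0.381). With only the groups compared, 5034 loci were called in d14-7 and 2171 in scl28, 2 of the 40 genes fell in each, and 1 fell between d14-7 and libraries labelled ckx3 ckx5. The covariate is itself a measured expression level. The cause of these shifts was not tested.

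Leaving out 1 library at a time gave, against WT, 2 to 3 risen and 12 to 18 fallen in libraries labelled ckx3 ckx5, 5 to 10 and 1 to 9 in d14-7, and 3 and 2 to 5 in scl28. The loci called ran from 4682 to 8354, from 5026 to 10355 and from 2890 to 5674. In d14-7, 5 rose without WT replicate 2, WT replicate 3 or d14-7 replicate 2, and the fallen numbered 2, 1 and 3 without WT replicate 3, WT replicate 4 and d14-7 replicate 4; 5231 and 5026 loci were called without WT replicates 3 and 4. In scl28, 2 fell without WT replicate 3 or 4. Between d14-7 and libraries labelled ckx3 ckx5, 13 to 16 rose and 0 to 1 fell (6329 to 8657 loci), with 1 fallen without WT replicate 4 or ckx3 ckx5 replicate 3. Between d14-7 and scl28, 9 to 15 rose and 2 to 6 fell (7546 to 9814 loci), with 2 fallen without d14-7 replicate 1 or 4 or scl28 replicate 3 or 4. Between scl28 and libraries labelled ckx3 ckx5, 14 rose and 4 to 7 fell (4131 to 6099 loci). The joint test called 19 to 29 genes.

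With a block on the replicate numbers of the sample titles, 5881, 7837 and 3889 loci were called in the 3 mutants against WT. In libraries labelled ckx3 ckx5, FAH1 and VND6 (adjusted p = 0.0553 and 0.0548) and NST1 in d14-7 (0.0535) lost their calls, as did CYP98A3 between d14-7 and scl28 and VND6 between scl28 and libraries labelled ckx3 ckx5, and PAL4 gained one between d14-7 and scl28. With DESeq2, C4H in d14-7 against WT and MYB46 between d14-7 and scl28 were gained and the other 238 of 240 results kept their side of the threshold. Low counts limit SND1, MYB83, NST1 and VND6.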
